A study of Ciona robusta with 15 samples.

Results

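A total of 229 transcripts of the oral siphon of Ciona robusta, of 17745 measured, stood highest in siphons taken immediately after amputation and lower in all regrowing siphons and, on average, in non-regenerating ones. The oral siphon is the tube through which this solitary sea squirt draws in seawater, and it regrows after it is cut off. As background, regrowth of the siphon in Ciona closes the wound, rebuilds the muscle bands, nerves, epidermis and sensory pigment organs of the tube, and draws partly on cells that migrate from the branchial sac. The level of a messenger RNA in a piece of tissue depends on how many cells make it and on how much each holds, and in these bulk samples fewer cells of a type and less RNA per cell cannot be told apart.

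Polyadenylated RNA was sequenced in 15 libraries, 3 in each of 5 groups: non-regenerating (NR) siphons, and siphons 0 (D0), 1 (D1), 3 (D3) and 8 (D8) days after amputation. Per the labels' protocols, all groups came from wild type siblings, the offspring of a single pair, aged about 6 months; animals to be amputated were anesthetized in 0.04% MS222 and housed at 15 °C during the time course. Each library held the pooled RNA of 5 tissue samples, so its values carry no spread between animals, and p-values measure the spread between pools. The labels do not say how the NR siphons were handled in comparison with those of D0, nor whether pools shared animals. Library totals ran from 7039611 counts in D3 replicate 1 to 33413013 in NR replicate 2. The identifiers are Ensembl transcript identifiers, of which 0 of 17745 could be paired with a gene name in the RefSeq table of 21486 genes used here. The roles of the transcripts, their positions and sequences are therefore not given, and the tissue label could not be checked against marker genes. Several libraries stand apart from their labelled stage: in the transcripts described here, the libraries labelled D3 replicate 3 and D8 replicate 3 lay nearest to D0. The fall, the gap to D0, the position of NR and the number of transcripts the rule chose are also given without this pair, and the order of the days without replicate 3 of D1, D3 and D8.

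The 229 transcripts were chosen on their measured levels, in CPM, that is counts scaled to a common library total, after scaling of the libraries by the trimmed mean of M-values (TMM). Of 13951 transcripts with a D0 mean of at least 1 CPM, 280 had their highest value among the 9 D1, D3 and D8 libraries below the lowest D0 library, which is 2.01%; 315, or 2.26%, had every one of these 9 libraries above the highest D0 library. Of the 280, 245 also had an NR mean below the lowest D0 library, and 241 of these had an NR library over 0.5 of the lowest of the 12 D libraries. A last condition, NR replicate 2 or 3 over 0.25 of that lowest D library, left 229. The direction of the change against D0 was thus set by the choice, as was the upper bound of the NR mean, and the values against D0 given here are a description without a test. Many members lay close to the limit. The lowest D0 library exceeded the highest regrowth library by less than 1.1 times in 141 of the 229 (61.6%), and by 1.2 times or more in 39 (17%). Of all 13951 transcripts, 99.3% had a ratio of these libraries under 1.1, most of them under 1 and so outside the choice. A ratio of 1.2 or more was held by 0.287%. In the same 229 read without D3 replicate 3 and D8 replicate 3, the member counts were 64 and 119. The shares of all 13951 transcripts were then 94.2% and 3.71%. Leaving out regrowth libraries can only widen this gap, so the direction of that change was fixed. Just inside stood ENSCINT00000016455, with a highest regrowth library of 11.57 CPM and a lowest D0 library of 11.59 CPM. Just outside stood ENSCINT00000036657, with a highest regrowth library of 9.12 CPM and a lowest D0 library of 9.118 CPM.

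The transcripts took middle to high shares of the reads; levels are not corrected for transcript length. Their D0 means ran from 1.03 to 462 CPM with a median of 28.2 CPM, where the median of all 13951 transcripts was 14.5 CPM. Of the 229, 66 had a D0 mean of 50 CPM or more (28.8%, against 20.9% of the 13951), 143 lay between 5 and 50 CPM, and 20 were below 5 CPM (8.73%, against 21.7%). The lowest count of any member in a D0 library was 11, and the median count over members and libraries was 264. In 42 members at least 1 library held under 10 counts, so that low values there are known with little precision. In all, the 229 transcripts took 0.449%, 0.406% and 0.36% of the counts in the NR libraries. They took 1.09%, 1.07% and 1.26% at D0, 0.748%, 0.869% and 0.714% at D1, 0.753%, 0.808% and 0.863% at D3, and 0.656%, 0.651% and 0.859% at D8.

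Some members had nearly identical counts, which copies or isoforms with common reads would also show. ENSCINT00000009231 and ENSCINT00000009243 agreed within 1% of their total counts, as did 2 further pairs, and counted once these pairs leave 226 members. Another member agreed in this way with a transcript outside the group. ENSCINT00000002977 and ENSCINT00000002984 differed by more than 1% but moved together over the 15 libraries (r = 0.997 of log2 CPM, a description over libraries that share the same stages), and may be a single signal.

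The fall was moderate in most members. The mean of the 9 regrowth libraries stood at 61.2% of the D0 mean in the median member, with quartiles of 51.3% and 67.7% and extremes of 21.7% and 87.5%; over all 13951 transcripts the median was 100.7%. In 49 of the 229 members the regrowth mean was 50% of D0 or lower, a count given without its share of all transcripts. The lower quartile of all 13951 transcripts was 82.3%. By day, the median member stood at 59.1% of its D0 mean at D1, 65.3% at D3 and 58.3% at D8. On the log2 scale the median ratio of the regrowth mean to the D0 mean was -0.71, against 0.01 for all 13951 transcripts. Without D3 replicate 3 and D8 replicate 3 it was -0.82 in the same members. This pair was left out because it lay nearest to D0 in them, which favours a deeper fall.

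**Figure D1:**
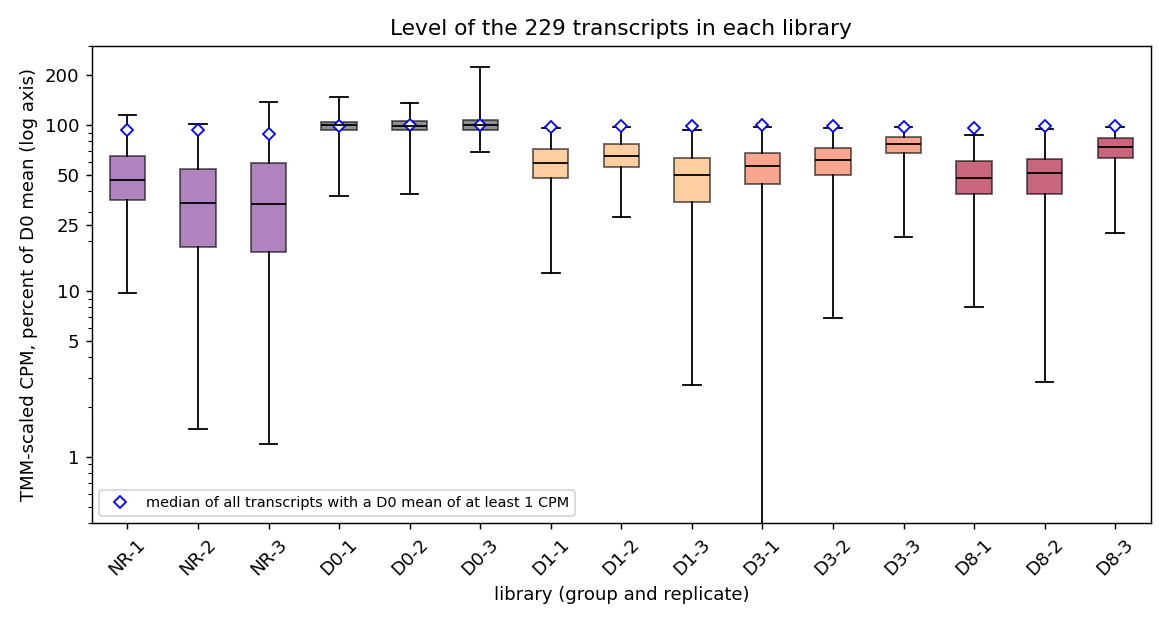
TMM-scaled CPM of the 229 transcripts in each of the 15 libraries, as a percent of the D0 mean of each transcript, on a log axis. Boxes show the quartiles and median, whiskers the lowest and highest transcript (transcripts with no count in D3 replicate 1 run off the axis), and diamonds the median of all transcripts with a D0 mean of at least 1 CPM. The median member lies at 33.4% to 47% in NR libraries, at 99% to 99.7% in D0 libraries and at 48.2% to 77.4% in regrowth libraries, while the diamonds stay near 100%.

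ENSCINT00000024311 had the highest D0 mean of the group. It held 291, 141 and 52.0 CPM in the NR libraries, in the order of replicates 1, 2 and 3, which is used for all values by library. It held 409, 436 and 541 CPM at D0, 276, 274 and 204 CPM at D1, 190.5, 235.5 and 385 CPM at D3, and 123, 159 and 285 CPM at D8. NR replicates 1 and 2 lay within the range of the regrowth libraries and NR replicate 3 below it, while D3 replicate 3 was the regrowth library nearest to D0. ENSCINT00000004338, next in CPM at D0, held 89.5, 115 and 199.9 CPM in the NR libraries. Its values were 293, 325 and 304 CPM at D0, 216, 209.6 and 185 CPM at D1, 180.1, 198 and 287 CPM at D3, and 143, 156 and 187 CPM at D8. Here NR replicate 3 was the highest NR library, and D3 replicate 3 again stood nearest to D0.

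The deepest fall among members with a D0 mean of at least 5 CPM was that of ENSCINT00000022830. It held 5.51, 1.46 and 2.56 CPM in the NR libraries, a mean of 3.18 ± 2.10 (SD, n = 3), against 53.4, 36.7 and 48.5 CPM at D0, a mean of 46.2 ± 8.61 (SD, n = 3). Over the regrowth it stood at 10.7, 12.8 and 1.26 CPM at D1, 2.75, 3.16 and 31.9 CPM at D3, and 3.71, 1.30 and 22.65 CPM at D8. The replicate 3 libraries of D3 and D8 held most of its remaining signal, and that of D1 held the least of its day. It also varied most among the regrowth libraries, with a coefficient of variation (SD over mean) of 1.08, where the median member had 0.239 and all 13951 transcripts a median of 0.242. ENSCINT00000020594 was next in depth of fall, at 28.6% of D0 in the regrowth mean. It held 0.977, 1.16 and 3.41 CPM in the NR libraries and between 0.945 and 3.54 CPM in the 9 regrowth libraries, against 7.09, 4.42 and 13.5 CPM at D0, so its D0 libraries themselves differed widely.

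Among members with a D0 mean of at least 5 CPM, the lowest D0 library exceeded the highest regrowth library by the widest ratio in ENSCINT00000026775. It held 14.2, 9.23 and 5.69 CPM in the NR libraries and 11.8 to 22.3 CPM in the regrowth libraries, against 33.5, 39.7 and 36.5 CPM at D0. The ratio was 1.502, and D3 replicate 3, at 14.6 CPM, was not near D0. ENSCINT00000026747 was similar, with 8.52, 5.71 and 4.98 CPM in NR, 6.93 to 11.7 CPM in regrowth and 19.4, 16.9 and 23.2 CPM at D0. ENSCINT00000002984 followed, with 28.1, 24.2 and 22.3 CPM in NR against 158, 138 and 128 CPM at D0. In the regrowth libraries it ranged from 38.6 CPM in D1 replicate 3 to 90.7 CPM in D3 replicate 3, so that all 9 lay between the NR and the D0 libraries.

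**Figure D2:**
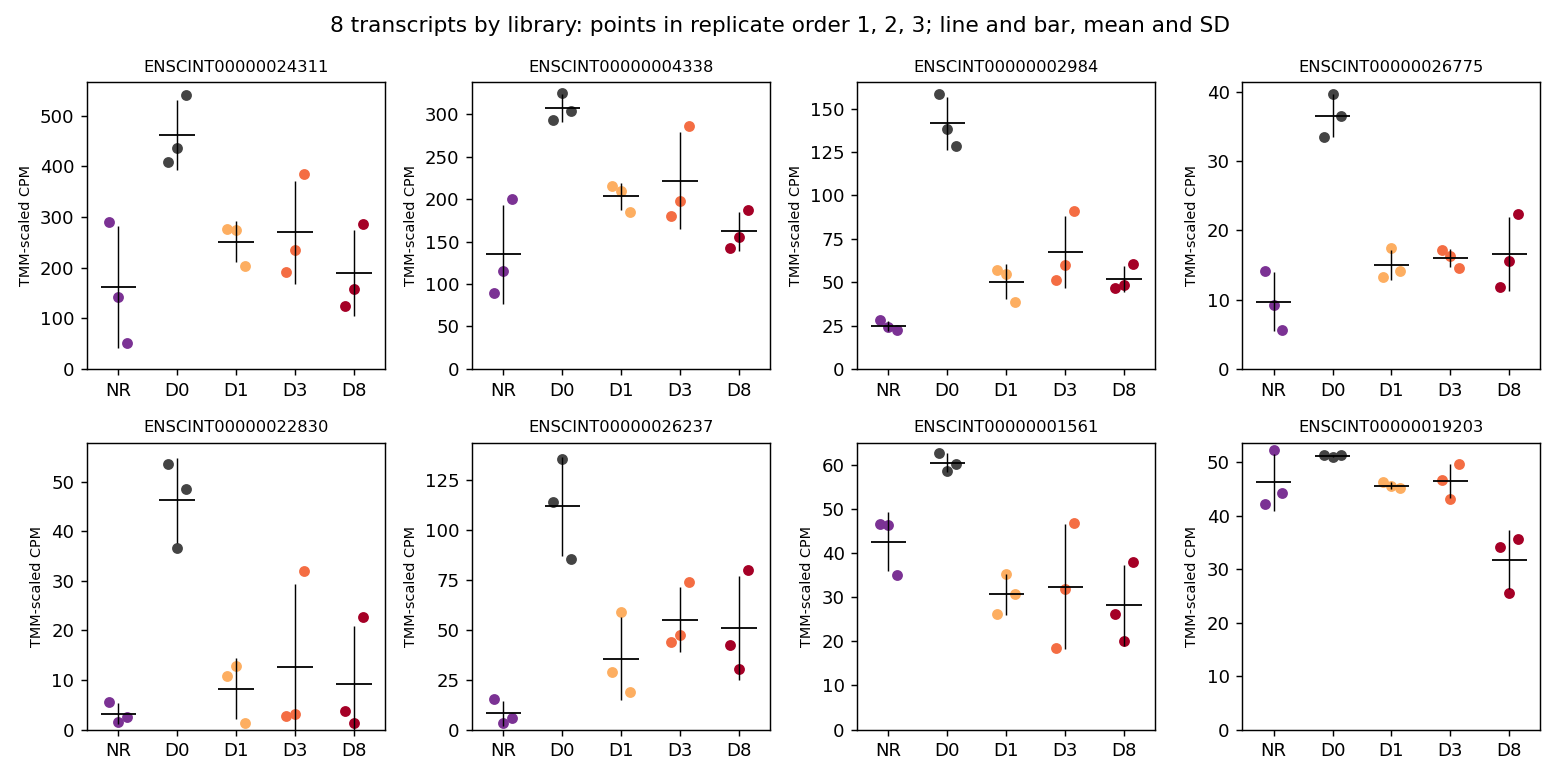
TMM-scaled CPM of 8 named transcripts (linear axes from 0) in the NR, D0, D1, D3 and D8 groups; points are libraries in replicate order, horizontal lines the mean and vertical lines the SD of 3 libraries. D0 stands above all regrowth libraries in each panel, as the choice requires, while NR runs from the lowest group (ENSCINT00000026237, 3.53 to 15.4 CPM) to above the regrowth mean (ENSCINT00000001561, 35.0 to 46.5 CPM).

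Non-regenerating siphons lay at or below the regrowth level in most members. The NR mean stood at 39.5% of the D0 mean in the median member (quartiles 26.3% and 59.2%), where it was 95.1% over all 13951 transcripts. The NR mean was at or under 50% of D0 in 148 of the 229 and at or under 25% in 53, counts given without their shares of all transcripts. The lower quartile of all 13951 transcripts was 60.8%. All 3 NR libraries lay below every D0 library in 199 members; they did so in 23.9% of the 13951 transcripts. The regrowth mean was nearer to the NR mean than the D0 mean was in 221 of the 229, a count given without its share of all transcripts. In the median member regrowth had covered 69.5% of the distance from D0 to NR, where the median of all 13951 transcripts was 29.2%. The choice placed both the regrowth libraries and the NR mean below the lowest D0 library, which already favours such a position.

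Members differed in where the NR siphons lay relative to the 9 regrowth libraries. The NR mean was below all 9 in 107 members, within their range in 115 and above all 9 in 7, or 46.7%, 50.2% and 3.06%, where the shares of the 13951 transcripts were 25.1%, 53.7% and 21.2%. The bound on the NR mean limits the last of these classes. Without D3 replicate 3 and D8 replicate 3 the counts were 107, 105 and 17, or 46.7%, 45.9% and 7.42%. The shares of the 13951 transcripts were then 28.5%, 48.2% and 23.3%. Leaving out regrowth libraries can only narrow their range, so the class within it could only lose members. In the classes from all libraries the median log2 ratios of the regrowth mean to D0 were -0.71, -0.73 and -0.67. The median log2 ratios of NR to D0 were -1.65, -0.93 and -0.26. All 3 NR libraries were below every regrowth library in 42 members (18.3%, against 11% of the 13951 transcripts), and all 3 within the regrowth range in 36 (15.7%, against 18.3%). Without D3 replicate 3 and D8 replicate 3 these counts were 42 and 24 (18.3% and 10.5%, against 12.9% and 13.7% of the 13951 transcripts). Among members with a D0 mean of at least 5 CPM, the lowest NR level relative to regrowth was that of ENSCINT00000026237, with 15.4, 3.53 and 5.97 CPM in the NR libraries, against 18.9 to 79.9 CPM in regrowth libraries and 114, 136 and 85.8 CPM at D0. ENSCINT00000020911 came next, with 15.8, 6.98 and 2.84 CPM in NR, against 20.3 to 47.8 CPM in regrowth and 57.0, 76.8 and 79.2 CPM at D0. Among the same members the highest NR level relative to regrowth was that of ENSCINT00000001561, with 46.5, 46.4 and 35.0 CPM in NR, against 18.4 to 46.8 CPM in regrowth and 62.7, 58.5 and 60.2 CPM at D0. ENSCINT00000033197 held 144, 130.4 and 225 CPM in NR, against 71.6 to 179.5 CPM in regrowth and 209.8, 180 and 208.5 CPM at D0, so that NR replicate 3 exceeded the D0 libraries. The NR means of these 2 transcripts, 42.6 and 166.5 CPM, lay within the regrowth range through D3 replicate 3: without it and D8 replicate 3 their highest regrowth libraries were at 35.3 and 148.7 CPM.

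**Figure D3:**
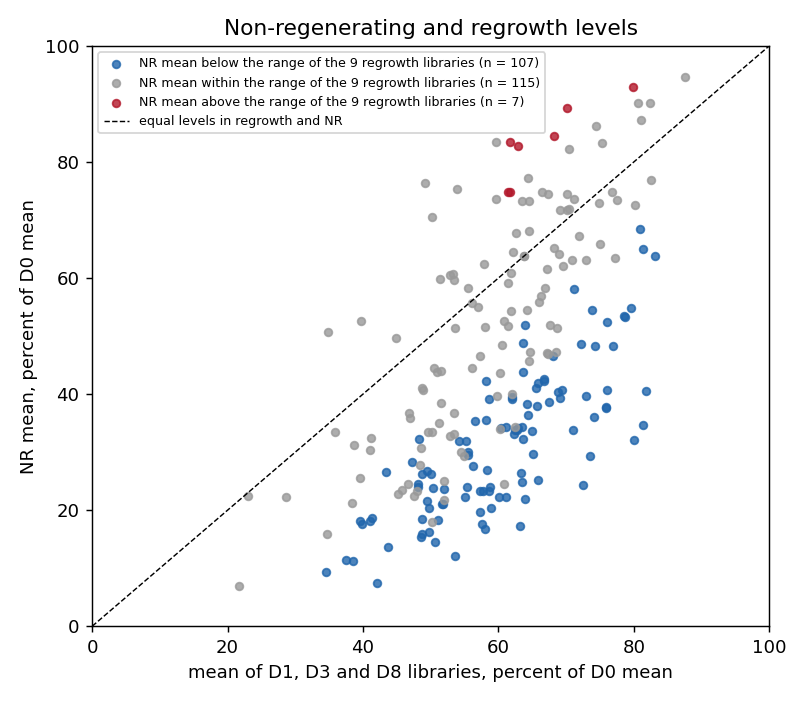
Each point is 1 of the 229 transcripts, with the mean of the 9 D1, D3 and D8 libraries (horizontal) and of the 3 NR libraries (vertical), both as a percent of the D0 mean. Colours give the NR mean as below (107), within (115) or above (7) the range of the regrowth libraries, and most points lie under the dashed line of equal levels.

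The NR libraries were not alike. The median member stood at 47% of its D0 mean in NR replicate 1, 34.1% in replicate 2 and 33.4% in replicate 3, while the median of all 13951 transcripts differed from D0 by -0.10, -0.09 and -0.17 on the log2 scale in the same libraries. NR replicate 1 was the highest NR library in 135 of the 229 members. It lay within the regrowth range in 135 members and below it in 78, whereas replicate 2 lay within in 85 and below in 135, and replicate 3 within in 84 and below in 126. In 37 members the highest NR library exceeded the lowest more than 4 times. These counts describe the members alone, without shares of all transcripts. The choice also set a condition on NR replicates 2 and 3 that it did not set on replicate 1. Without NR replicate 1 the median log2 ratio of NR to D0 in the same 229 members was -1.61, against -1.34 with it.

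For reference, the fit across all genes was read for the contrasts that the choice used. A negative binomial quasi-likelihood test in edgeR over all 15 libraries tested 15328 transcripts, among them 228 of the 229 members; ENSCINT00000031110, with a D0 mean of 1.65 CPM, fell under its expression filter. Against D0, NR was called lower in 146 of the 228 members at an adjusted p under 0.05 in edgeR, where 13.6% of all transcripts were called lower. DESeq2 called 168 members lower in NR (17.1% of all) and limma voom 174 (17.4% of all). At D1 2 members were called lower than at D0 in edgeR, ENSCINT00000002977 and ENSCINT00000002984, where 0.013% of all transcripts were. Their lowest adjusted p was 0.0489 in edgeR, and 0 members were called when any single library of D0 or D1 was left out, with the replicate block, or without the NR libraries. At D3 and at D8 0 members and 0% of all transcripts were called lower in edgeR. At an unadjusted p under 0.05 there were 130 members at D1, 87 at D3 and 144 at D8, where the shares of all transcripts lower at that p were 4.37%, 1.83% and 6.02%. DESeq2 called 16 members lower at D1 (0.286% of all), 3 at D3 (0.0262% of all) and 37 at D8 (1.1% of all), and limma voom 2 at D1 (0.013% of all) and 0 at D3 and D8 (0% of all). These counts follow from the choice and add nothing to it, and the 3 days share the same D0 libraries.

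The choice did not order the days of regrowth, but it held every D1, D3 and D8 library below the lowest D0 library. A member could thus not rise above that level on any day, which limits differences between days. The tests reuse these values, and the shares of all transcripts are under no such bound. No difference passed in the members, and low counts here do not show that the days were alike. In edgeR 0 of 228 members, and 0% of all 15328 transcripts, were called between D3 and D1, between D8 and D3, between D8 and D1, or in an F-test over the 3 days. At an unadjusted p under 0.05 there were 0 members for D3 against D1 (2.99% of all transcripts), 3 for D8 against D3 (1.32% of members, 2.99% of all), 3 for D8 against D1 (1.32% of members, 1.45% of all) and 1 in the F-test (0.439% of members, 2.25% of all). DESeq2 and limma voom also called 0 members in these tests; of all transcripts, DESeq2 called 0.072% for D3 against D1, 0.0851% for D8 against D3, 0.00654% for D8 against D1 and 0.0851% in the test over the 3 days, and limma voom 0%. ENSCINT00000019203 had the lowest p of the members in 3 of the tests. It stood at 42.2, 52.2 and 44.2 CPM in NR, and at 51.3, 51 and 51.3 CPM at D0, 46.3, 45.5 and 45.1 CPM at D1, 46.6, 43.2 and 49.6 CPM at D3, and 34.2, 25.5 and 35.6 CPM at D8. All 3 D8 libraries lay below the other 12, and D8 differed from D1 by -0.52 ± 0.159 (log2 fold change, SE; edgeR adjusted p = 1). ENSCINT00000002977 had the lowest p for D3 against D1, with 45.8, 55.5 and 80.8 CPM at D3 against 50.8, 46.7 and 33.7 CPM at D1, or 0.48 ± 0.234 as a log2 fold change (SE; edgeR adjusted p = 0.999).

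The median member stood at 59.1%, 65.4% and 50.3% of D0 in the D1 libraries, at 56.4%, 61.5% and 77.4% in the D3 libraries and at 48.2%, 51.6% and 73.7% in the D8 libraries. These medians spanned 15, 21 and 26 percentage points within D1, D3 and D8, while the 3 day medians spanned 7. Without replicate 3 of each day they spanned 6.2, 5 and 3.4 points within D1, D3 and D8, and the day medians spanned 11.7. Replicate 3 was the lowest library of D1 and the highest of D3 and D8, so leaving it out had to narrow the spans within days. Day medians rest on means over libraries, which spread less than single libraries. The spans therefore do not weigh days against pools. The highest of the 9 regrowth libraries was D3 replicate 3 in 92 members and D8 replicate 3 in 70, together 70.7%; over all 13951 transcripts these libraries were the highest in 16.6% and 13.1%. The lowest was D1 replicate 3 in 68 members and D8 replicate 1 in 57, or 29.7% and 24.9%, against 16.6% and 10.5% of all transcripts. The first principal component of the members' log2 CPM held 55% of the variance over the 9 libraries, and no such share is given for all transcripts. On it D3 replicate 3 at 6.89 and D8 replicate 3 at 6.48 lay at one end and D1 replicate 3 at -6.65 at the other. What distinguishes these pools was not tested.

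The order of D1 and D3 turned on the replicate 3 libraries. D8 had the lowest day median with and without them, but with all libraries it was nearly level with D1, at 58.3% against 59.1%. In the edgeR fit D8 lay above D1 in 111 of the 228 members and below it in 117. With all libraries, D3 had the highest of the 3 day means in 140 of the 229 members and D8 the lowest in 108. Without replicate 3 of D1, D3 and D8, the median member stood at 62.2% of D0 at D1, 59.3% at D3 and 50.5% at D8. D1 then had the highest day mean in 138 members and D8 the lowest in 169. In the median member replicate 3 was the lowest D1 library and the highest D3 and D8 library. Leaving it out thus favours a higher D1 and a lower D3 and D8, and the order without it does not establish an order of the days. These counts by day have no share of all transcripts beside them and describe the members alone. In the fit without the libraries numbered 3 in every group, 5 of 229 members were called for D8 against D1 and 1 in the F-test, where 528 and 367 of 15444 transcripts were called in all. A few members varied little over the regrowth. ENSCINT00000006417 held 58.1 to 70.1 CPM in all 9 regrowth libraries and 25.1, 23.4 and 31.3 CPM in NR, against 73.4, 79.8 and 76.2 CPM at D0. ENSCINT00000000567 held 15.3 to 18.8 CPM in the regrowth libraries and 23.6, 18.5 and 11.9 CPM in NR, against 20.5, 18.9 and 22.6 CPM at D0, so that its NR libraries lay on both sides of D0.

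Since every library took part in the choice, the rule was also applied with 1 library left out, and the left-out library was then read. For the D1 libraries, D3 replicates 1 and 2 and D8 replicates 1 and 2, between 231 and 262 transcripts were chosen, and the left-out library lay below the lowest D0 library in 87.4% to 98.7% of them, where it did so in 24.4% to 34.9% of all transcripts at that level. For D3 replicate 3, 530 were chosen and 43.2% met the condition, against 23.4% of all. For D8 replicate 3, 455 were chosen and 50.3% met it, against 24.6% of all. In these transcripts the left-out library stood at a median of 91.4% and 89.8% of the D0 mean, where the other 7 regrowth libraries, each left out in turn, stood at 48.3% to 68.2%.

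The D0 libraries were the other limit. Without D0 replicate 1, 2 or 3 the rule chose 392, 520 and 694 transcripts, and the left-out D0 library exceeded all 9 regrowth libraries in 59.4%, 44.8% and 33.3% of them, where it did in 12.5%, 14.5% and 14.6% of all. For the NR libraries, 199, 212 and 233 transcripts were chosen without replicate 1, 2 and 3, and the left-out library lay below the lowest D0 library in 92%, 96.2% and 88.4% of them, where it did in 39.9%, 41.7% and 44.7% of all transcripts. A rule with fewer libraries has fewer conditions to meet, and the left-out values are read against libraries that chose the transcripts, so these shares describe the libraries and are not a test. Without D3 replicate 3 and D8 replicate 3 together the rule chose 961 transcripts, and all 229 members were among them.

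**Figure D4:**
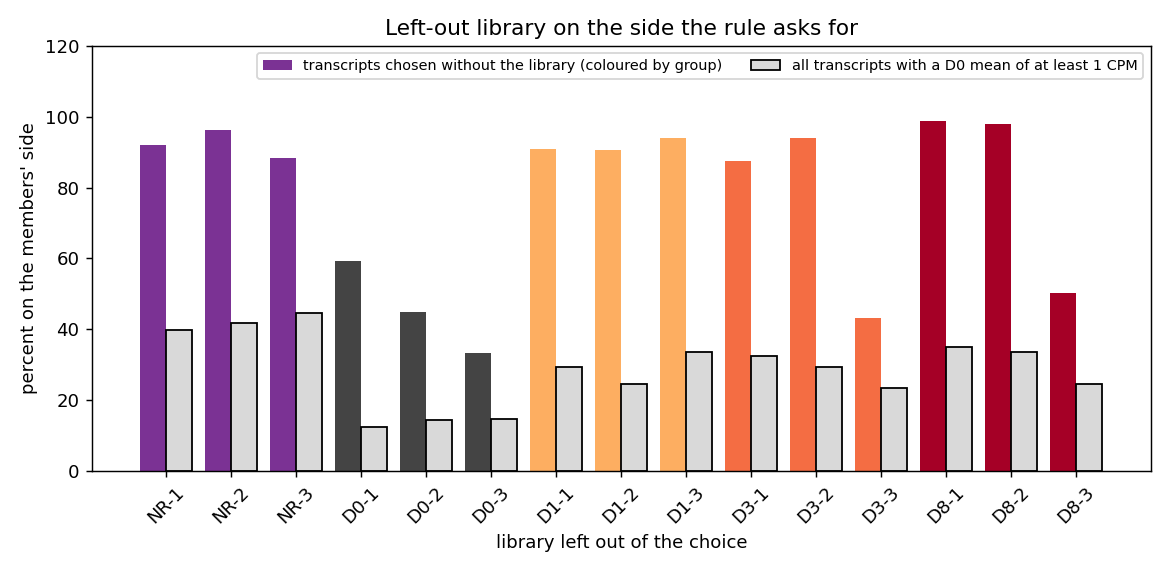
Share of transcripts whose left-out library lies on the side the rule asks for (below the lowest D0 library for NR, D1, D3 and D8; above all regrowth libraries for D0), in percent. Coloured bars are the transcripts chosen without that library and grey bars all transcripts with a D0 mean of at least 1 CPM; the coloured bars of D3 replicate 3 (43.2%), D8 replicate 3 (50.3%) and the D0 libraries (33.3% to 59.4%) are the lowest.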

How the data were processed

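The authors deposited raw read counts per Ensembl transcript identifier for 15 libraries, not normalized. TopHat, Bowtie and HTSeq are listed in the submitters' processing notes; tool versions, genome build, annotation and strand setting were not given in the sources used here, so overlapping and antisense transcripts cannot be told apart. Counts were scaled by TMM in edgeR 4.0.16 (R 4.3.3), over all rows for CPM and the choice of members, and over 15328 transcripts passing edgeR's expression filter (minimum count 10) for tests. A single quasi-likelihood fit to the 15 libraries estimated each group's mean, and two-sided p-values were adjusted by Benjamini-Hochberg over all transcripts tested, at 0.05. DESeq2 1.42.0 and limma voom (limma 3.58.1) were alternatives. Depth ran from 7039611 to 33413013 counts; intervals of counting error are not given, since the counts are reads and not molecules. Medians by library used log2 of CPM plus 0.1. The members and all lists were chosen with earlier results of these data known. Members are named, 1 or 2 per list because they have no gene names, by highest D0 mean, deepest fall, widest gap, highest and lowest NR relative to regrowth, nearness to the limit, lowest p between days, and lowest and highest variation in regrowth, with a D0 mean of at least 5 CPM required for fall, gap, NR and variation; ENSCINT00000002984, ENSCINT00000002977, the members sharing counts and the untested one were chosen after their values were seen. Pathway and cell type lists could not be used without names.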

Additional observations from a re-analysis of the deposited data

How the results depend on the processing

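With library totals alone, the rule chose 143 transcripts (95 of them members) with a median log2 ratio of NR to D0 of -1.66; this scaling moved the median of all transcripts to 0.15 for regrowth and -0.50 for NR against D0. In the 229 members themselves the medians were then -0.58 for regrowth and -1.76 for NR. Size factors as in DESeq2 chose 250, 223 of them members, and gave the 229 medians of -0.73 and -1.29. The rule chose 1665 without the libraries numbered 3, 961 without D3 and D8 replicate 3 and 925 without replicate 3 of D1, D3 and D8, the last 2 settings, like the library weights, chosen after the data were seen. Leaving out 1 library gave 199 to 694 transcripts, with median log2 ratios of -0.86 to -0.68 for regrowth and -1.51 to -1.16 for NR against D0.

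The 2 members called for D1 against D0 became 0 with library totals, with at least 10 CPM in 3 libraries, with the replicate block, without the NR libraries, without replicate 3 of D1, D3 and D8 and without any library of D0 or D1, 3 without the libraries numbered 3 (0.628% of all transcripts tested were called lower), 16 in DESeq2 (0.286%) and 50 in limma voom with library weights (1.08%). For D3 and D8 against D0, where edgeR called 0, the counts were 3 and 37 in DESeq2 (0.0262% and 1.1% of all lower), 23 and 86 without the libraries numbered 3 (2.97% and 6.35%), 15 and 64 without replicate 3 of D1, D3 and D8 (0.791% and 3.13%), and 46 and 192 with library weights (1.43% and 12.9%); D8 gave 6 (0.109%) without D8 replicate 3 and 0 without any other single library. NR against D0 gave 113 to 154 over single libraries left out, where 8.37% to 17.4% of all were called lower. Between days, 5 members were called for D8 against D1 and 1 in the F-test without the libraries numbered 3 (3.42% and 2.38% of all in either direction), and 0 in each other alternative run. The causes were not tested. Replicate numbers were not taken to pair the pools: deviations of same-numbered libraries correlated at -0.59 to 0.30, above 0.1 in 5 of 30 pairs. Of 27 named members, 0 of 697 fold changes of regrowth and 2 of 670 of NR against D0 reversed, both of ENSCINT00000000567, at a log2 fold change of 0.061 without NR replicate 3 (-0.379 to 0.061 over single libraries left out) and 0.13 without the libraries numbered 3.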
